A study of Caenorhabditis elegans with 2 samples.

Results

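The DREAM complex genes of Caenorhabditis elegans are the 8 genes efl-1, dpl-1, lin-35, lin-9, lin-37, lin-52, lin-53 and lin-54. They were taken by name from 19973 nuclear protein-coding genes, and all 8 were found in the annotation. Peaks were looked for at their promoters, meaning a peak summit within 500 bp of the annotated 5' end, and in their gene bodies. The study mapped by chromatin immunoprecipitation and sequencing (ChIP-seq) the genomic positions of the protein encoded by attf-3, whose name stands for AT hook transcription factor. Its only group was whole young adults, 63 hours old, of strain RW12296, in which CRISPR had inserted TY1, EGFP and 3xFLAG tags at attf-3 on chromosome III (allele st12296). An antibody against GFP was used, and the animals had been synchronised by starving L1 larvae after bleaching. There were 2 biological replicates from separate biosamples and no contrast between conditions, so no test between groups was possible.

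DREAM is a repressor of transcription that is conserved between worms, flies and mammals. A heterodimer of an E2F and a DP protein and a MuvB subcomplex both contact DNA, and a protein of the retinoblastoma (Rb) family links them. In the worm soma it holds down cell cycle genes and germline genes, and several of its genes were found as class B synthetic multivulva (synMuv B) genes, whose loss together with a synMuv A gene gives extra vulvae. In the worm germline EFL-1 and DPL-1 also promote expression of oogenesis genes.

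The tagged protein had a peak at the promoters of 5 of the 8 genes: dpl-1, lin-35, lin-9, lin-53 and lin-54. These are the DP subunit, the Rb family protein and 3 subunits of MuvB. The E2F gene efl-1 and the MuvB genes lin-37 and lin-52 had none. The count comes from the joint list, the conservative list of 1737 peaks that rests on comparing the replicates, and is 62.5% (95% Wilson interval 30.6 to 86.3%). The interval covers counting error only, since the 8 genes are the whole named set and were not drawn at random. They were also chosen with earlier results of these data known, so the count is a description. In the joint list 1212 protein-coding genes, or 6.07%, were called in this way. Candidates before the threshold were far more common. In the joint ranked list 6 of the 8 genes had a summit there, against 55.6% of all genes, and in the ranked form of a further list from both replicates, called the pooled list here, 7, against 54.4%. In replicate 1's ranked list all 8 did, against 42.3%, and in replicate 2's 6 did, against 40.7%. In the thresholded lists, the same 5 genes were called in each replicate's own list, where the background was 4.03% in replicate 1 and 4.4% in replicate 2, and in the pooled list, with 6.01%. The lists measure binding and hold no RNA level. Peaks come from all cells of whole animals, so binding in a few cell types and weaker binding in many cannot be told apart.

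The sequence under the stronger summits lets their letters be compared. It is given on assembly ce11, from RefSeq, in the direction of the member gene, for the sites of dpl-1, lin-9 and lin-54, for a peak past the 3' end of lin-9, and for the weak candidate site of efl-1 as a contrast. Capitals mark GGTCTCG and the E2F letters TTTCGCGC, TTTGGCGC, TTTCCCGC and TTTGCCGC, on either strand. All windows are the summit and 100 bp on each side, except that of lin-54, which was taken from the base next to the 5' end of rpl-12 onwards and holds the summit near its start. These are chrII:9169543-9169743 on the plus strand, chrIII:8904179-8904379 on the minus strand, chrIV:13240652-13240802 on the plus strand, chrIII:8899803-8900003 on the minus strand and chrV:16965758-16965958 on the minus strand.
dpl-1: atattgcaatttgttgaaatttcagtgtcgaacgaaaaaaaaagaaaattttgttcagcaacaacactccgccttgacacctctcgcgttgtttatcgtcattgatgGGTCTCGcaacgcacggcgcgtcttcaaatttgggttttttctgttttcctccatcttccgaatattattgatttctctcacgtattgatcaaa
lin-9: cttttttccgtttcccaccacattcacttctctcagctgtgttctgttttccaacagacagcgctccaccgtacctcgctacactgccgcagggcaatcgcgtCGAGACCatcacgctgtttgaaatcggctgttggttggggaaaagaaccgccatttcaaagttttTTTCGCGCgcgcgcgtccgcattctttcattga
lin-54: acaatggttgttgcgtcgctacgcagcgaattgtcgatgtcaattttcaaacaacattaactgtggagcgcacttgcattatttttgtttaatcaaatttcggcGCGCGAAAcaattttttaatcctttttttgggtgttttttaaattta
lin-9, past the 3' end: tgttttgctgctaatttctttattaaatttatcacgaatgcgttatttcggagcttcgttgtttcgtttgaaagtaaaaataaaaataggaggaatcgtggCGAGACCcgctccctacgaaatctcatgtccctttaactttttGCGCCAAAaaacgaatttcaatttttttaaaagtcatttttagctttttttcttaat
efl-1, candidate: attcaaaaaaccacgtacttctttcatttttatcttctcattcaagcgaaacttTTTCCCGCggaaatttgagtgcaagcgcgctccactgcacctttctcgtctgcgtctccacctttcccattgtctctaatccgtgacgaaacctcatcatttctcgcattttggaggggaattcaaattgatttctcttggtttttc

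The letters GGTCTCG lay almost on the summit at 3 of the 5 bound genes. Their centre was 10 bp from the summit at dpl-1, 6 bp at lin-9 and 5 bp at lin-53, downstream of the summit in the direction of each gene. The peak past the 3' end of lin-9 also had them, 4 bp from its summit. Over all joint promoter peaks, 97 of 979 windows of the summit and 100 bp on each side (9.91%) held GGTCTCG. Windows of that length centred 1000 bp from the joint summits held it in 2.42% of cases. The windows of lin-35 and lin-54 did not hold it, nor did the candidate window of efl-1. The letters were searched on both strands and were chosen after the members' windows had been read, so their count at the members is a description.

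The textbook sites of the complex itself were also looked for. The E2F letters TTTCGCGC or TTTGGCGC were in the windows of lin-9 and lin-54, at 71.5 and 95.5 bp from the summit, and in 73 of 979 windows (7.46%) of joint promoter peaks. They were absent from the 50 bp on each side of the 5 summits, where 5.62% of joint promoter peaks held them. The peak past the 3' end of lin-9 had TTTGGCGC 47.5 bp from its summit. With TTTCCCGC and TTTGCCGC searched as well, a wider choice made after seeing the data, 3 of the 5 windows had a match, against 121 of 979 (12.4%) of joint promoter peaks and 3.20% of windows 1000 bp away. The match added was at lin-53, 84.5 bp from the summit. The candidate window of efl-1, which has no peak past the threshold, held TTTCCCGC too, at -42.5 bp. The letters TTTGAA or TTCGAA, which match the cell cycle genes homology region bound by LIN-54 and its relatives, were in 4 of the 5 windows, all but that of lin-35. They were in 54.1% of the windows of joint promoter peaks and in 50.6% of windows 1000 bp away. Apart from the wider E2F letters, which include the narrower, none of the motifs contains another. In the summit and 50 bp on each side, 50.5% of bases were A or T at the median member, with 42.6% at lin-9 and lin-53 and 55.4% at lin-35. The median joint promoter peak had 53.5% and windows 1000 bp away had 62.4%.

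**Figure D1:**
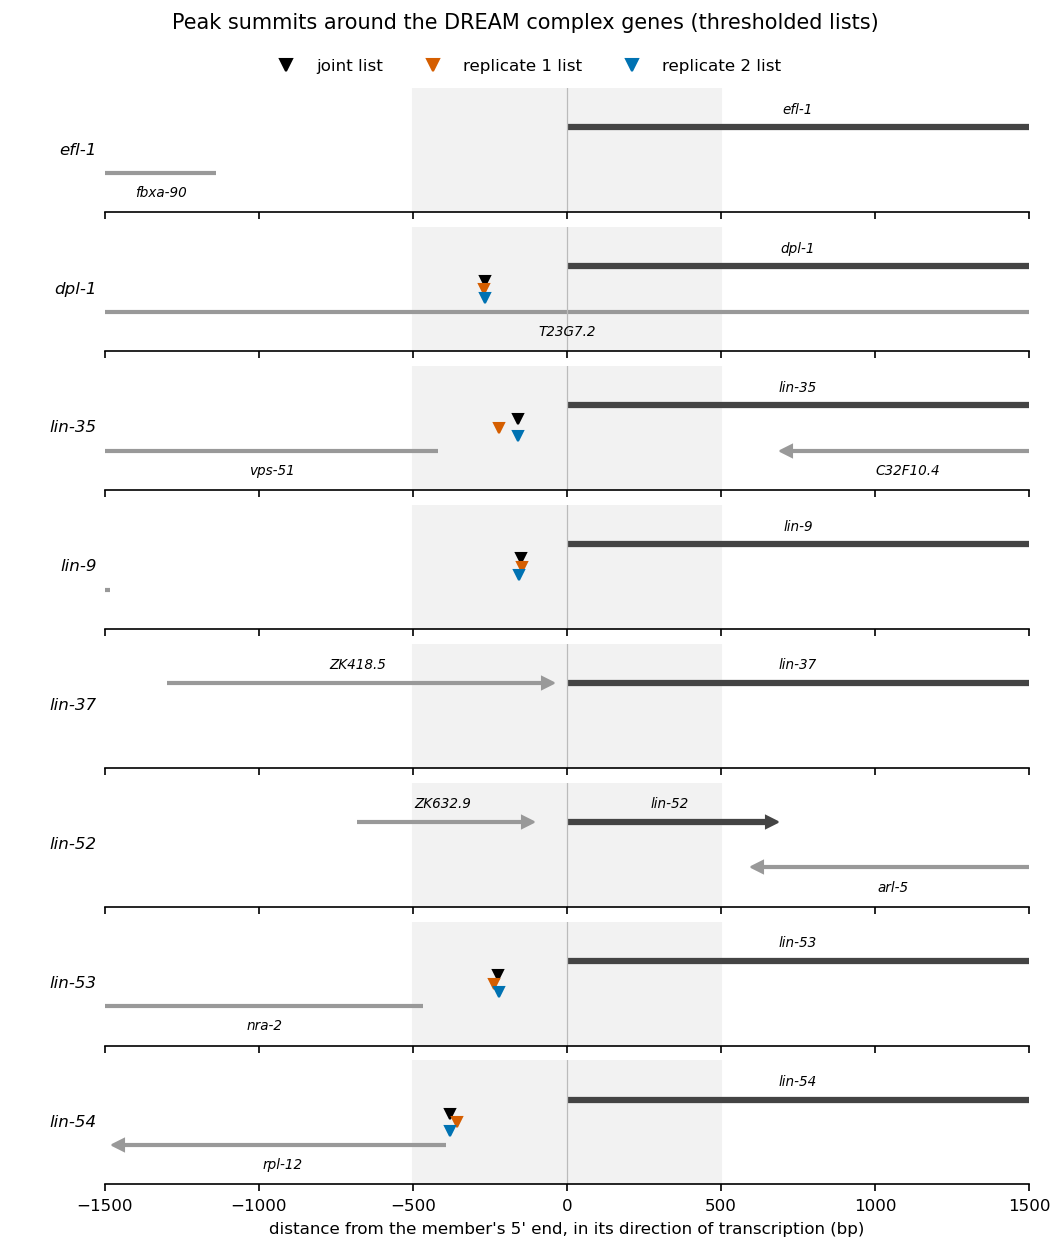
Position of peak summits (triangles) in the thresholded joint list and in each replicate's own list, for each DREAM complex gene; the x axis is the distance from the member's 5' end in bp, negative upstream, and the grey band is the window of 500 bp on each side. Genes drawn above run in the member's direction and genes below run against it. Summits stand upstream of dpl-1, lin-35, lin-9, lin-53 and lin-54, at -380 to -148 bp in the joint list, and there is none at efl-1, lin-37 or lin-52.

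The gene of the DP subunit, the partner of E2F in DNA binding, had the strongest peak. At dpl-1 (WBGene00001061, chromosome II, 9169910 to 9172565, plus strand) the signal was 372 in replicate 1 and 388 in replicate 2, and 769 in the joint list. The replicates' values lay close together, at 380.2 ± 11.6 (SD, n = 2). The signal is the authors' value per peak, on a scale that is not given, and values of different lists may not share a scale. At the 5 genes the joint value was 0.970 to 1.01 times the sum of the replicates' values. The joint peak ran from 9169498 to 9169773 with its summit at 9169643, or -267 bp from the 5' end, and had rank 131 of 1737. The summits of the replicates were 5 bp apart. No other protein-coding 5' end lay within 500 bp of it. The summit lies in T23G7.2, a gene that runs in the opposite direction across the whole of dpl-1, in an exon of its non-coding transcript.

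The gene of the E2F subunit had no peak past the threshold. At efl-1 (WBGene00001161, chromosome V, 16958590 to 16965675, minus strand) the nearest summit of the joint list was -241061 bp away. The ranked lists hold candidate peaks before the threshold, and those for both replicates together and for replicate 2 had no summit within 500 bp either. Replicate 1's ranked list had a candidate at -183 bp with a signal of 40.4 and rank 2519 of 43427. Its irreproducible discovery rate (IDR), which is low where a peak ranks high in both lists compared, was 0.212, while the thresholded lists end at 0.01. Of the 18761 genes without a joint promoter peak, 1.86% had a value this high in that list.

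LIN-35 is the only Rb family protein of the worm. At lin-35 (WBGene00003020, chromosome I, 5807709 to 5815637, plus strand) the signal was 75.0 in replicate 1 and 119.8 in replicate 2, with 189 in the joint list at rank 493. This was the weakest of the 5 peaks and the least even between replicates. Replicate 2 was 1.60-fold above replicate 1, and their mean was 97.4 ± 31.7 (SD, n = 2). Over 972 joint promoter peaks found in both ranked lists, the ratio of replicate 2 to replicate 1 was 1.09 at the median, 0.802 at the tenth percentile and 1.47 at the ninetieth. The summits of lin-35 were also farthest apart, 60 bp, at -220 bp in replicate 1 and -160 bp in replicate 2. The joint summit, at -160 bp, was -258 bp from the divergent gene vps-51, which encodes a subunit of a vesicle tethering complex.

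Of the MuvB genes, lin-54 and lin-9 had peaks of similar size. LIN-54 is the subunit that binds DNA. At lin-54 (WBGene00003037, chromosome IV, 13241044 to 13243401, plus strand) the signal was 182 in replicate 1 and 232 in replicate 2, and 409.6 in the joint list at rank 244. The replicates averaged 206.9 ± 35.1 (SD, n = 2), with summits 22 bp apart. The joint summit, 13240664, was -380 bp from the 5' end of lin-54 and -13 bp from that of rpl-12, which encodes a protein of the large ribosomal subunit and is transcribed away from lin-54. When a peak counted for the nearest gene alone, this one went to rpl-12 and 4 of the 8 genes were called, against 4.67% of all genes.

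LIN-9 is a core MuvB subunit. At lin-9 (WBGene00002998, chromosome III, 8900237 to 8904131, minus strand) the signal was 192 in replicate 1 and 205 in replicate 2, and 394 in the joint list. The replicates averaged 198.6 ± 8.69 (SD, n = 2), the smallest SD of the 5 genes. The peak had rank 250 in the joint list and in both replicates' own lists. It was also the narrowest, 182 bp in the joint list where the median peak spanned 320 bp, and its summits in the replicates were 9 bp apart. The joint summit, 8904279, was -148 bp from the 5' end, and unc-32, the next gene upstream, lay 1483 bp from lin-9.

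A further peak was found past the 3' end of lin-9. It ran from 8899743 to 8900062, with its summit 334 bp past the gene's end, a signal of 237 and rank 387 in the joint list. Replicate 1 had it at 118 and replicate 2 at 116. The nearest protein-coding 5' end was that of lin-9 itself, 4228 bp away, and the nearest other annotation was the piRNA gene 21ur-13808, 109 bp away. A summit of very low signal, 10.3, was listed beside it at rank 1675, in a peak that reached 26 bp into the 3' end of lin-9.

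LIN-53 is a histone-binding WD40 protein of the RbAp46/48 family, also a subunit of other chromatin complexes. At lin-53 (WBGene00003036, chromosome I, 9618196 to 9619760, minus strand) the signal was 93.4 in replicate 1 and 117 in replicate 2, and 211 in the joint list at rank 432. The replicates averaged 104.9 ± 16.4 (SD, n = 2). The summit, -225 bp from the 5' end, lay almost midway to the divergent gene nra-2, at -242 bp, which encodes a protein related to nicalin. The summits of the replicates were 14 bp apart.

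The genes lin-37 and lin-52, both of the MuvB core, had no peak in any thresholded list within 1000 bp. At lin-37 (WBGene00003022, chromosome III, 7070890 to 7072552, minus strand) the nearest joint summit was -15563 bp away. The pooled ranked list had a candidate of signal 27.6 and an IDR of 0.902 at -191 bp, and the joint ranked list had none. Replicate 1's ranked list had a candidate of signal 20.7 and an IDR of 0.933, and replicate 2's had none. The value of replicate 1 was below the median of 22.5 over genes without a joint promoter peak that had a candidate there.

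At lin-52 (WBGene00003035, chromosome III, 9824083 to 9824750, minus strand) the nearest joint summit was 19336 bp away. A candidate stood 474 bp downstream of the 5' end, inside the gene, with signals of 39.4 in replicate 1, 32.9 in replicate 2 and 71.4 in the joint ranked list. Its IDR was 0.0494 in the joint ranked list, the nearest to the threshold of the 3 uncalled genes, but 0.788 in the pooled ranked list, 0.870 in replicate 1 and 0.809 in replicate 2. Of genes without a joint promoter peak, 2.48% had a joint candidate this high.

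**Figure D2:**
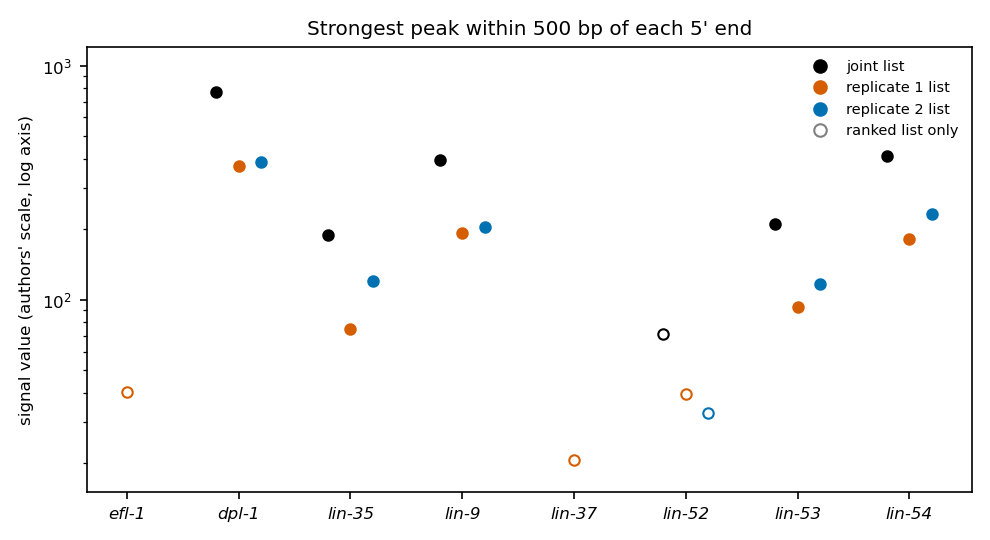
Signal of the strongest peak within 500 bp of each member's 5' end, on a log axis, in the joint list and in the lists of both replicates. Filled points are peaks of the thresholded lists and open points are candidates found only in the ranked lists; a missing point means no summit there. The joint values of the 5 called genes run from 189 at lin-35 to 769 at dpl-1, and the highest candidate of the others is 71.4 at lin-52.

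**Figure D3:**
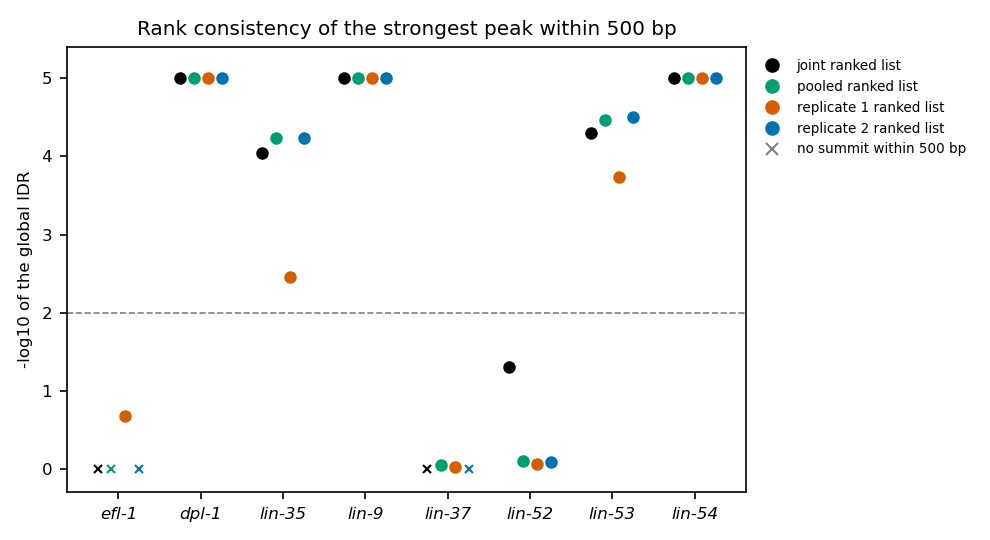
Consistency of the strongest peak within 500 bp of each member's 5' end, as −log10 of the global IDR in the 4 ranked lists; higher is more consistent, 5 is the highest value listed and the dashed line is an IDR of 0.01. Crosses at 0 mark lists with no summit in the window. Points of dpl-1, lin-9 and lin-54 stand at 5 in all 4 lists, and lin-35 is lowest among the called genes in replicate 1, with an IDR of 0.00345.

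In the ranked lists dpl-1, lin-9 and lin-54 had the lowest IDR listed, 1e-05, in all 4. The IDR of lin-53 was 0.000183 in replicate 1 and 3.14e-05 in replicate 2, and that of lin-35 was 0.00345 in replicate 1 and 5.78e-05 in replicate 2.

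In signal the 5 genes fell in the order dpl-1, lin-54, lin-9, lin-53 and lin-35. In the replicates' lists lin-54 and lin-9 change places, with lin-9 above lin-54 in replicate 1 and below it in replicate 2, so that these neighbours do not differ beyond their spread. The same holds for lin-53 and lin-35, where lin-35 was lower in replicate 1 and higher in replicate 2. Their median joint signal was 394, and that of all 1212 called genes was 155, with quartiles of 111 and 352. Of the 979 joint promoter peaks, 120 were stronger than that of dpl-1 and 358 were stronger than that of lin-35. The replicates' own lists are shorter, and there the peaks stood lower. The peak of lin-35 was at 28.4% from the top of the joint list, 66.7% in replicate 1 and 37.5% in replicate 2. That of lin-53 was at 24.9%, 50.1% and 39.1% in the same lists.

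All 5 peaks were in the thresholded lists of both replicates, also when an overlap of 50% of both peaks was asked for. Among all joint promoter peaks, 506 of 979 (51.7%) were in both. Among the 234 other promoter peaks with signals between those of lin-35 and dpl-1, 233 (99.6%) were in both, and 181 were at the overlap of 50%.

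**Figure D4:**
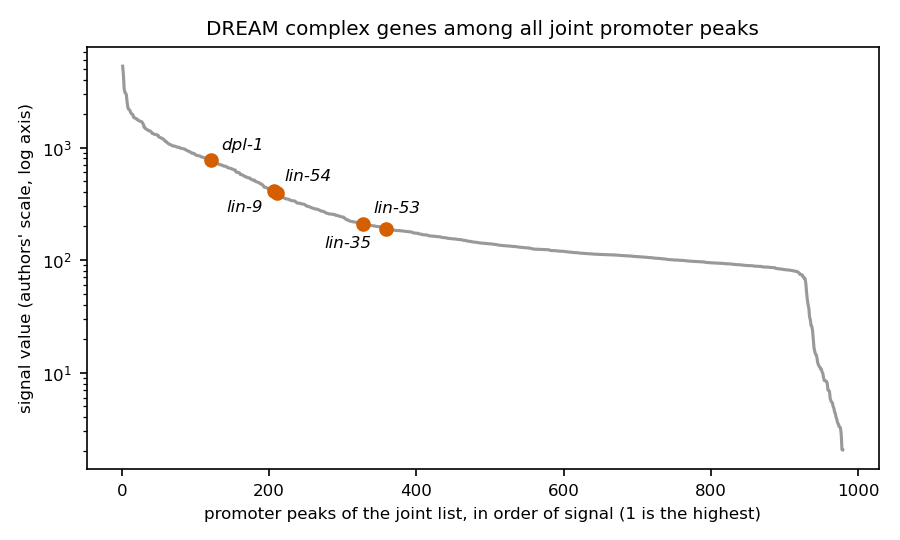
Signal of all 979 promoter peaks of the joint list, in order (grey line, log axis), with the 5 called DREAM complex genes marked. The marked genes run from 769 at dpl-1 to 189 at lin-35.

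Summits lay upstream of the 5' end at all 5 genes and at 1081 of the 1212 called genes. The median distance was -225 bp for the 5 genes and -179 bp for all called genes. With a window of 250 bp the calls of dpl-1 and lin-54 were lost and 3 of 8 remained, against 3.9% of all genes. At 1000 bp 5 were called, against 7.73%. There were also 5 with the 5' ends of all transcripts, against 6.37%, and with any base of a peak in the window, against 6.62%.

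Some members shared a promoter peak with a divergent neighbour. The peaks of lin-35, lin-53 and lin-54 each had the 5' end of another protein-coding gene within 500 bp. That is 3 of 5 peaks, against 292 of 979 joint promoter peaks (29.8%), where the genes could run in any direction. With only 5 peaks, a difference was not tested. These data do not assign a shared peak to a single gene. In the whole genome, 394 of 1840 genes (21.4%) whose upstream neighbour runs in the opposite direction within 500 bp were called, and these 3 genes are all the members of that kind. The members lin-37 and lin-52 follow a gene on their own strand, 60 bp past ZK418.5 and 126 bp past ZK632.9. Of 1907 genes that follow a neighbour on the same strand within 200 bp, 63 (3.30%) were called. No protein-coding gene with its 5' end within 8000 bp of that of lin-37 or lin-52 was called, which takes in ZK418.5 and ZK632.9. For efl-1, dpl-1 and lin-9 the nearest upstream gene that does not overlap the member runs in the opposite direction and lies farther off. In that arrangement 438 of 7231 genes (6.06%) were called. At dpl-1 that gene is T23G7.3, 2079 bp away, and T23G7.2, which runs across dpl-1 and its summit, was passed over.

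The gene body was taken as the part between the annotated ends that lies more than 500 bp from the 5' end. Gene bodies held no joint summit in any of the 8 genes, against 1.69% of all genes. All 8 genes were examined, so their own count is 0. Taking 3 genes as the most that a count of 0 allows, the limit by counting error alone is 37.5%. The other thresholded lists had none in the 8 genes either, against 1.62% of genes in the pooled list, 0.776% in replicate 1 and 0.926% in replicate 2. The joint ranked list had candidates there. The strongest was in lin-35, with a signal of 55.2 and an IDR of 0.171. It lay near the 3' end, 7674 bp from the 5' end. The protein-coding genes hmg-3 and C32F10.4 overlap lin-35. The candidate inside lin-52, with 71.4, lies within 500 bp of the 5' end and so was counted at the promoter. When any base of a peak was counted, lin-9 was added through the low summit past its 3' end.

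The genes with the most similar values were found by the Euclidean distance in log10 signal over 3 values, those of the joint list and of both ranked lists per replicate. For dpl-1 these were the peak shared by ess-2 and F42H10.2, with a joint signal of 765, and that shared by rbx-2 and ncbp-1, with 779. For lin-9 they were iff-2, with 399, and ddp-1, with 406. For lin-54 they were F11C1.7, with 425, and the pair Y92H12BM.1 and Y92H12BR.7, with 421. For lin-53 they were the Hsp70 gene hsp-1, with 209.6, and the eggshell gene cpg-1, with 209, and for lin-35 hrpk-1, with 195, and sco-1, with 199.

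Genes around the complex were described in 6 lists, written from general knowledge and with earlier results of these data known. Their counts are therefore descriptions. Of 87 such genes, 23 (26.4%, 18.3 to 36.6%) had a joint promoter peak, against 6.07% of all genes. The lists overlap, and the total of 87 counts each gene once. None of 13 other E2F, cyclin D and G1/S control genes did, which by the same limit of 3 genes allows a share of up to 23.1%. The list of 13 includes the E2F family genes efl-2 and efl-3 and the cyclin D gene cyd-1. With a window of 1000 bp 2 of the 13 were called, against 7.73% of all genes. With any base of a peak 1 was, against 6.62%. None of the 4 synMuv A genes had a joint promoter peak either, which by the limit of 3 genes allows up to 75%.

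Genes active in S phase and mitosis, of kinds that DREAM controls in flies and mammals, were called at 14 of 33 (42.4%, 27.2 to 59.2%). Of all genes, 6.07% were called. The median signal of the 14 was 150.3. The strongest were the cyclin B gene cyb-1, with 1843 at -493 bp, the Aurora A kinase gene air-1, with 858, and the topoisomerase II gene top-2, with 337. These peaks are shared with orc-5, cogc-6 and npp-3. Replicate 1's own list called 8 of the 33, against 4.03% of all genes, and replicate 2's 9, against 4.4%. Only 6 of the 14 had a peak in both replicates' lists. At 250 bp 9 were called, against 3.9%. With the nearest gene only, 9 were called as well, against 4.67%. The median signal of the 5 complex genes was 394, above the 150.3 of these 14 genes.

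Of 14 other synMuv B genes, 4 were called (28.6%, 11.7 to 54.6%), against 6.07% of all genes. Their median signal was 109, and all 4 were below the weakest called complex gene, lin-35. The highest were mep-1, with 142, lin-36, with 109, and the SUMO gene smo-1, with 108, at -491 bp. Of these, mep-1 alone had a peak in both replicates' lists. Replicate 2's own list called 1 of the 14, against 4.4% of all genes, and replicate 1's 2, against 4.03%. In the stronger 868 peaks 1 was called, against 3.93%, and at 250 bp 1, against 3.9%.

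Among 9 genes of complexes that share proteins of the LIN-53 family, 1 was called (11.1%, 1.99 to 43.5%). The share of all genes was 6.07%, and a difference from it was not tested. The called gene was chaf-2, with a signal of 171 at a peak shared with Y71G12B.30. It encodes a chromatin assembly factor subunit. Replicate 2's own list, which leaves out replicate 1, called 2 of the 9, against 4.4% of all genes. A window of 1000 bp also called 2, against 7.73%. The list includes rba-1, the close relative of lin-53 that lies just downstream of it, and that gene was not called.

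Of 16 germline genes, among them P granule and synapsis genes, 4 were called (25%, 10.2 to 49.5%), against 6.07% of all genes. The strongest were the synaptonemal complex gene syp-2, with 857 at a peak shared with cox-16, the histone methyltransferase gene mes-4, with 253, and the P granule helicase gene glh-1, with 118. Only 2 of the 16 were called in the stronger 868 peaks, syp-2 and mes-4, against 3.93% of all genes.

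**Figure D5:**
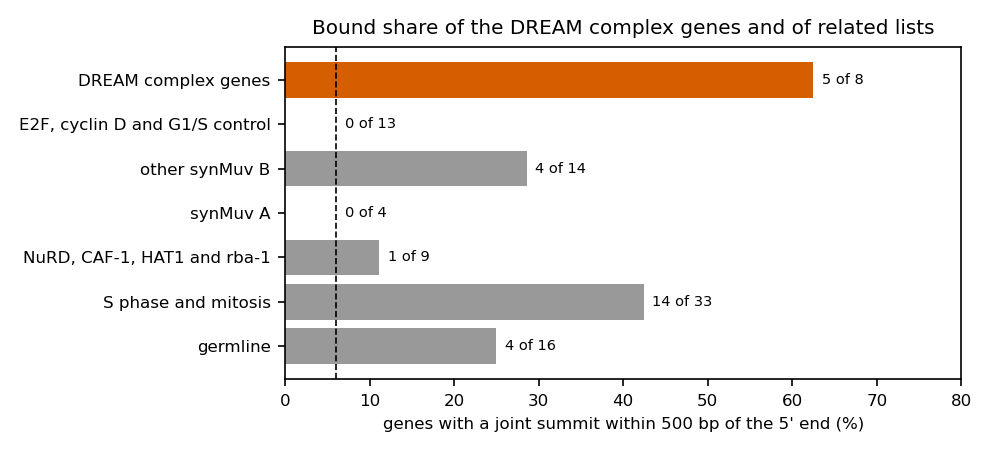
Percentage of genes with a joint summit within 500 bp of the 5' end, for the DREAM complex genes and 6 lists of related genes, with the counts beside the bars; the dashed line is the 6.07% of all protein-coding genes. The complex genes stand at 5 of 8, S phase and mitosis genes at 14 of 33, and no E2F, cyclin D and G1/S control gene was called.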

How the data were processed

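ChIP-seq peak lists from 2 replicates of 1 group were used, on assembly ce11 per the labels. The authors deposited 8 lists, 4 ranked by IDR and 4 kept at a threshold, each derived from replicate and control alignments per the readme texts deposited with them. The aligner and peak caller were not given in the sources used here. In the deposited lists the signal of a peak is the authors' value, the score is their scaled IDR, capped at 1000, and the −log10 of the global IDR is in the ranked lists. Summit positions were computed as column 2 plus column 10 and counted from 1. Depth is unknown, since the lists hold no counts, so no floor on reads was computed and intervals cover counting error over genes only. In the ranked lists of both replicates together, 8 unnamed columns each were not used.

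Genes came from Ensembl release 115 (WBcel235, the assembly of ce11) and sequences from RefSeq's record of it; no peak ran past a chromosome end. Genes that share a symbol were told apart by gene ID. Python 3.11.15, pandas 2.3.3, numpy 2.4.6 and scipy 1.17.1 were used, and the calling of genes was tested on simulated data. No test between groups and no test of a gene list was made. The members and lists were chosen with earlier results of these data known; 2 of 89 list symbols, cdc-45 and cdc-20, were not matched. Named genes were all members, genes sharing their peaks, their upstream neighbours, the 3 strongest called genes of each list and the 2 nearest peaks by signal for each called member. Alternatives were other lists, windows, gene assignments, transcript 5' ends, any base of a peak and overlap rules, and the letters GGTCTCG, the wider E2F letters and the narrower window for letters were added after seeing the data. Longer patterns around GGTCTCG were also looked at and are not reported here.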

Additional observations from a re-analysis of the deposited data

How the results depend on the processing

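The count of 5 called members was the same in the pooled list and in each replicate's own list. It was also 5 in the stronger 868 joint peaks, where 3.93% of all genes were called. At 1000 bp, with the 5' end of any transcript and with any base of the peak it was 5 as well. It was 4 with the nearest gene only and 3 at 250 bp. The count of 23 called genes over the related lists became 14 to 15 with either replicate left out, 15 in the stronger peaks and 15 at 250 bp, which are smaller peak sets or windows by construction. The share over all genes fell from 6.07% to 4.03% in replicate 1's own list and 4.4% in replicate 2's. In the stronger peaks it was 3.93% and at 250 bp 3.9%. A gene body call, 1, was made only with any base of a peak. The median summit distance of the 5 genes ran from -236 to -222 bp with either replicate left out. The E2F letters fell to 0 of 5 windows when these were shortened to 50 bp on each side, an alternative chosen after seeing the data, and were in 3 of 5 with the wider E2F letters. With either replicate left out, the peak of lin-35 stood between 37.5 and 66.7% from the top of the list, and that of lin-53 between 39.1 and 50.1%. No paired analysis was possible because there is 1 group. With 2 replicates and no counts, the spread per gene rests on 2 values and the depth behind them is unknown.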
